A study of Mus musculus with 6 samples.

Results

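The genes described here are 10 components and targets of Wnt signalling with a planar polarity gene among them: Axin2, Lef1, Tcf7, Tcf7l1, Tcf7l2, Sp5, Nkd1, Dkk1, Prickle1 and Fzd7. They were chosen by symbol, as all probe sets that the platform annotation gives to exactly 1 of these symbols. This found 22 probe sets for 9 of the 10 genes, among 45037 probe sets in all and 18193 genes with a probe set of a single symbol. No probe set of Tcf7 was analysed here. The arrays come from mouse embryonic stem cells, derivatives of ES-E14TG2a on a 129P2 background, grown for 2 days in serum-free N2B27 medium, where such cells turn to neural fate. Every line carried a hairpin embedded in a microRNA (shRNAmir), inducible by doxycycline (Dox), that targets Gmnn, the gene of the replication licensing inhibitor Geminin. GemKD cultures received Dox, stated as 500 ng with no volume, and the uninduced controls carried the same hairpin without Dox. Each of 3 independent experiments gave 1 GemKD and 1 control array (Affymetrix Mouse Genome 430 2.0). The hairpin was shRNAmir 11 in experiments 1 and 3, while cells of experiment 2 carried shRNAmir 9, so hairpin, line and experiment 2 cannot be told apart. All GemKD cells also had Dox, so knockdown and Dox cannot be told apart either.

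In canonical Wnt signalling a Wnt ligand binds a Frizzled receptor with an Lrp co-receptor, which stops the destruction complex built on Axin from degrading beta-catenin. Beta-catenin then binds the Tcf and Lef factors on DNA and turns their target genes on, among them the feedback inhibitors Axin2, Nkd1 and Dkk1. In mouse embryonic stem cells Tcf7l1 acts mainly as a repressor of pluripotency genes, and a related pathway through Frizzled, Vangl and Prickle proteins, planar cell polarity, orients cells within a sheet.

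Across the series the median signal was between 59.3 and 60.9 on the 6 arrays, so the arrays lay on a common scale, and their number limits the precision. Gmnn (probe set 1417506_at) fell from 3557, 3477 and 3463 in the controls to 983, 1669 and 1270 in GemKD of experiments 1, 2 and 3, a log2 difference of -1.44 (limma adjusted p = 0.296, and 4.03e-04 with the experiment as a block). All 3 GemKD arrays lay below all controls in Gmnn. The arrays of experiment 3 stood apart from the others. Over 15763 brighter probe sets the SD of the log2 difference was 0.368 to 0.397 between an array of experiment 3 and one of experiments 1 and 2. It was 0.123 to 0.201 among the arrays of experiments 1 and 2, and 0.17 between both arrays of experiment 3. Of the markers that check the labelled neurectoderm, all 7 neural progenitor genes were above the signal filter, with summed signals of 4350 to 5171 in experiments 1 and 2 and 2476 to 2712 in experiment 3. Hes5 lay just above it, at a mean signal of 20.8.

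Signals below are the deposited linear values of single probe sets, and a level is compared only with the same probe set on other arrays. Differences are log2(signal + 16), a scale that understates the change of dim genes. A probe set was tested if its mean signal over the 6 arrays was above the 30th percentile, a signal of 20.1, leaving 31526 in all and 18 of the 22 of these genes. Nkd1 1440446_at, Dkk1 1458232_at, Prickle1 1442172_at and the 1 probe set of Sp5 did not pass and have values only.

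The comparison of GemKD with uninduced control asks which genes respond when Geminin is lowered during neural fate acquisition. None of the 18 tested probe sets passed the limma test, where 0.00317% of all probe sets were called without the experiment as a block and 0.00952% with it. At an unadjusted p under 0.05 there were 1 and 2 of the 18, beside 1.1% and 4.62% of all probe sets. The adjusted p was 0.999993 for each of the 18 without the block and 0.992 to 0.9997 with it. The median log2 difference of the 18 was 0.03, against 0.01 over all probe sets tested, and their range was -0.14 to 0.46. In every experiment GemKD was above its control in 2 of the 18 and below it in 0, a pattern that 13.5% and 10.5% of all probe sets had. The 3 GemKD arrays lay above the 3 controls in 1 and below in 0 of the 18, and 2.83% and 2.27% of all probe sets did so. These shares lie near the background.

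**Figure D1:**
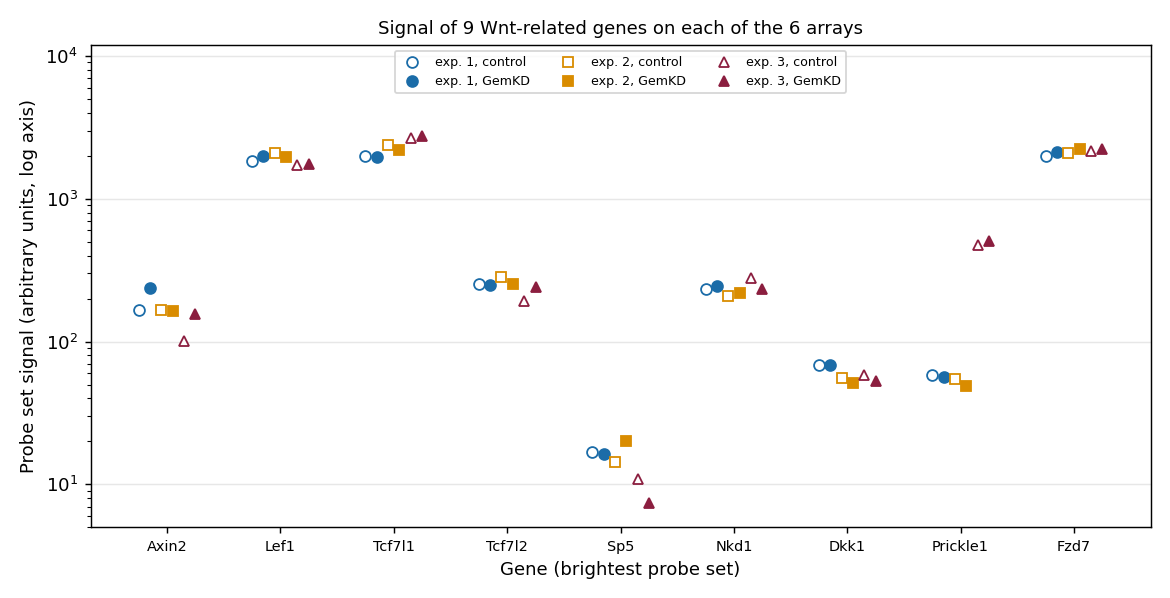
Signal of the brightest probe set of each of 9 genes on the 6 arrays, on a log axis. Open symbols are controls and filled symbols GemKD, with 1 colour and shape per experiment. The widest spread is that of Prickle1, with experiment 3 at 472 and 502 against 48.9 to 58.8 elsewhere.

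Of the receptors, Fzd7 encodes a Frizzled protein that is abundant in pluripotent cells. Its brighter probe set 1450044_at had a signal of 1991, 2105 and 2160 in the controls of experiments 1, 2 and 3 and of 2109, 2214 and 2220 in GemKD. Those 6 values cover a narrow range, with GemKD slightly above its own control each time and the groups overlapping. The log2 difference was 0.06 (95% interval -0.08 to 0.21, and -0.04 to 0.17 with the block). The dimmer 1450043_at, at a mean signal of 59.9, had log2 ratios of -0.40, -0.07 and 0.16 in the 3 experiments. The 2 probe sets therefore differ in direction in experiments 1 and 2.

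Axin2 encodes a scaffold of the destruction complex and is itself a direct target of beta-catenin, used widely as a readout of the pathway. Probe set 1436845_at had a signal of 165, 166 and 101 in the controls and of 239, 164 and 157 in GemKD. GemKD was above its control in experiments 1 and 3, which share shRNAmir 11, and level with it in experiment 2. The groups overlapped, since GemKD of experiment 3 lay below the controls of experiments 1 and 2. Expressed as folds on the signal + 16 scale, GemKD over control was 1.41, 0.993 and 1.48. The mean log2 difference was 0.35 (SE 0.23, 95% interval -0.18 to 0.88) without the block and had an interval of 0.07 to 0.63 with it, and neither fit called it (adjusted p = 0.999993 and 0.992). The dim probe set 1421341_at, with signals between 2.94 and 44.9, had log2 ratios of 0.28, 1.28 and -0.16. Its mean of 0.46 (95% interval without the block -0.56 to 1.49) had the same sign, but experiments 2 and 3 ranked the other way.

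Those ratios bear on the use of 2 hairpins, so the difference between shRNAmir 9 and shRNAmir 11 was tested by an interaction term with the experiment as a block. For Axin2 1436845_at the ratio under shRNAmir 9 minus the mean under shRNAmir 11 was -0.54 (95% interval -1.08 to 0.01, limma adjusted p = 0.9999). For 1421341_at it was 1.22 (0.23 to 2.22, limma adjusted p = 0.85), so the 2 probe sets of Axin2 gave opposite signs. None of the 18 probe sets was called, beside 0.336% of all probe sets. At an unadjusted p under 0.05 in limma there was 1 of the 18, beside 4.32% of all. Intervals for the other genes remained wide, for example -0.24 to 0.27 for Fzd7 1450044_at and -0.95 to 0.70 for Tcf7l2 1426639_a_at. The fit has a single residual degree of freedom per probe set, and experiment 2 is the single experiment with shRNAmir 9. Gmnn itself was called in it, with a log2 ratio of -1.05 under shRNAmir 9 and a mean of -1.64 under shRNAmir 11 (difference 0.59, 95% interval 0.31 to 0.86, limma adjusted p = 0.0415), a call that was lost with quantile normalization, no filter, no intensity trend or no block. The knockdown was shallowest in experiment 2, and its part in the ratios of these genes was not tested.

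Nkd1 encodes Naked cuticle 1, an inhibitor that binds Dishevelled and is a Wnt target in several tissues. Its brightest probe set, 1429506_at, had a signal of 234, 208 and 279 in the controls and of 246, 218 and 235 in GemKD. GemKD was a little above control in experiments 1 and 2 and below it in experiment 3, and the groups overlapped (log2 -0.03, 95% interval -0.35 to 0.29). The next probe set, 1417278_a_at, was at signals of 28.7 to 50.8 and had log2 ratios of -0.23, 0.10 and 0.52, and 1429507_at, at 24.3 to 42.9, had 0.26, 0.16 and -0.17. No probe set of Nkd1 had the same sign in all 3 experiments. The fourth, below the filter, had signals of 14.0 to 23.1.

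Dkk1 encodes a secreted antagonist that binds Lrp co-receptors. Probe set 1420360_at had a signal of 68.1, 55.7 and 58.4 in the controls and of 68.5, 51.1 and 52.8 in GemKD, so the groups overlapped and each pair was close (log2 -0.07, 95% interval -0.42 to 0.29). The other probe set of Dkk1 was below the filter, at 2.21 to 13.4. Sp5 encodes a zinc finger factor that is among the most direct Wnt targets in mouse embryonic stem cells. It was dim on all arrays, with a signal of 16.7, 14.4 and 11.0 in the controls and of 16.4, 20.3 and 7.41 in GemKD, and it was not tested. Its log2 ratios were -0.02, 0.25 and -0.21.

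The 250 bases before the start sites of these genes, from RefSeq on GRCm38.p6, were searched on both strands for letters that Tcf and Lef factors bind. The first was CTTTGAT and the next was CTTTGAA, then came CTTTGTT, and CTTTGTA was the last. Any of these was present in 5 of 16 start sites of the 10 genes and in 14.8% of all 32851. Shown are Sp5 and Dkk1, which hold 2 matches each (in capitals), and the first start sites of Axin2 and Prickle1, which hold 0. A match describes letters alone, and no match says only that these letters are not in this window.
Sp5 (chr2:70474673-70474922, plus strand): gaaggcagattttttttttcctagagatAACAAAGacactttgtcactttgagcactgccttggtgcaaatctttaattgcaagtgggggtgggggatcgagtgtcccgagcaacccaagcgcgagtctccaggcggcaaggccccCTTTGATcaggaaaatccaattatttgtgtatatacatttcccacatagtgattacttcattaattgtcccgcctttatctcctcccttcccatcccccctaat
Dkk1 (chr19:30549497-30549746, minus strand): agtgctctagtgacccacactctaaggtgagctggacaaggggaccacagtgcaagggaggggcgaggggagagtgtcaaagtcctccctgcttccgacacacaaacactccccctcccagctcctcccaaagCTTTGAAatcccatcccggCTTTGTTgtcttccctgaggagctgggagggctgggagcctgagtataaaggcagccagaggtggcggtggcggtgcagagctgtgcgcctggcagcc
Axin2 (chr11:108920099-108920348, plus strand): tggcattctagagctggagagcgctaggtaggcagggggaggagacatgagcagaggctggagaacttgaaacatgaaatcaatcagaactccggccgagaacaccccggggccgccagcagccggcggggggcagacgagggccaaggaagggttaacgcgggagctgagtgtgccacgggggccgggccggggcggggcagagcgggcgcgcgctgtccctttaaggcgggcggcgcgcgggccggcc
Prickle1 (chr15:93595903-93596152, minus strand): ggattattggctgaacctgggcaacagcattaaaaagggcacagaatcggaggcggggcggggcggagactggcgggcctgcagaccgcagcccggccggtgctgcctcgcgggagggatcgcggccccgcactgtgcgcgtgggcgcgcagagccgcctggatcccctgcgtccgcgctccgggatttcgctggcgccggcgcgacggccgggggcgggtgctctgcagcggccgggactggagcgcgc
In Sp5 the match CTTTGAT ended 98 bases before the start and CTTTGTT, on the opposite strand, lay 216 to 222 bases before it. In Dkk1 CTTTGAA lay 111 to 117 bases and CTTTGTT 92 to 98 bases before the start. For Dkk1 the comparison of GemKD with control was not called, and Sp5 was below the filter.

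The Tcf and Lef factors share a DNA-binding HMG box. Lef1 is mostly an activator with beta-catenin. Probe set 1454734_at had a signal of 1843, 2079 and 1730 in the controls and of 1995, 1951 and 1754 in GemKD. The order of GemKD and control turned between experiments 1 and 2, and the groups overlapped (log2 0.01, 95% interval -0.20 to 0.22, and -0.11 to 0.14 with the block). The other probe set, 1421299_a_at, at 598 to 779, had log2 ratios of 0.15, 0.07 and -0.21.

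Tcf7l1 is the main repressor of the family in embryonic stem cells. Probe set 1450117_at had 1981, 2379 and 2656 in the controls and 1949, 2184 and 2753 in GemKD, and 1436207_at had 1267, 1410 and 1894 against 1169, 1429 and 2250. The GemKD arrays of experiments 1 and 2 lay below their control in 1450117_at, and that of experiment 3 above it. Their log2 differences were -0.03 (95% interval with the block -0.14 to 0.08) and 0.05 (-0.10 to 0.20).

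Tcf7l2, a family member that activates or represses by context, had 4 tested probe sets. The 2 brighter ones carried a signal of 192 to 283 (1429428_at) and 141 to 262 (1429427_s_at). In both, GemKD of experiment 3 lay above its control, by log2 ratios of 0.31 and 0.51, and GemKD of experiment 2 below it, by -0.14 and -0.20. The dim 1426639_a_at had a signal of 31.7, 32.1 and 21.2 in the controls and of 45.3, 46.1 and 41.7 in GemKD. It is the probe set of these genes in which the groups did not overlap, and GemKD was higher in 3 of 3 experiments. The log2 ratios were 0.36, 0.37 and 0.63, with a mean of 0.45 (95% interval 0.08 to 0.83) and limma adjusted p of 0.999993 and, with the block, 0.992. The other 3 probe sets of Tcf7l2 had means of 0.05, 0.10 and -0.02, so no direction holds for the gene.

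**Figure D2:**
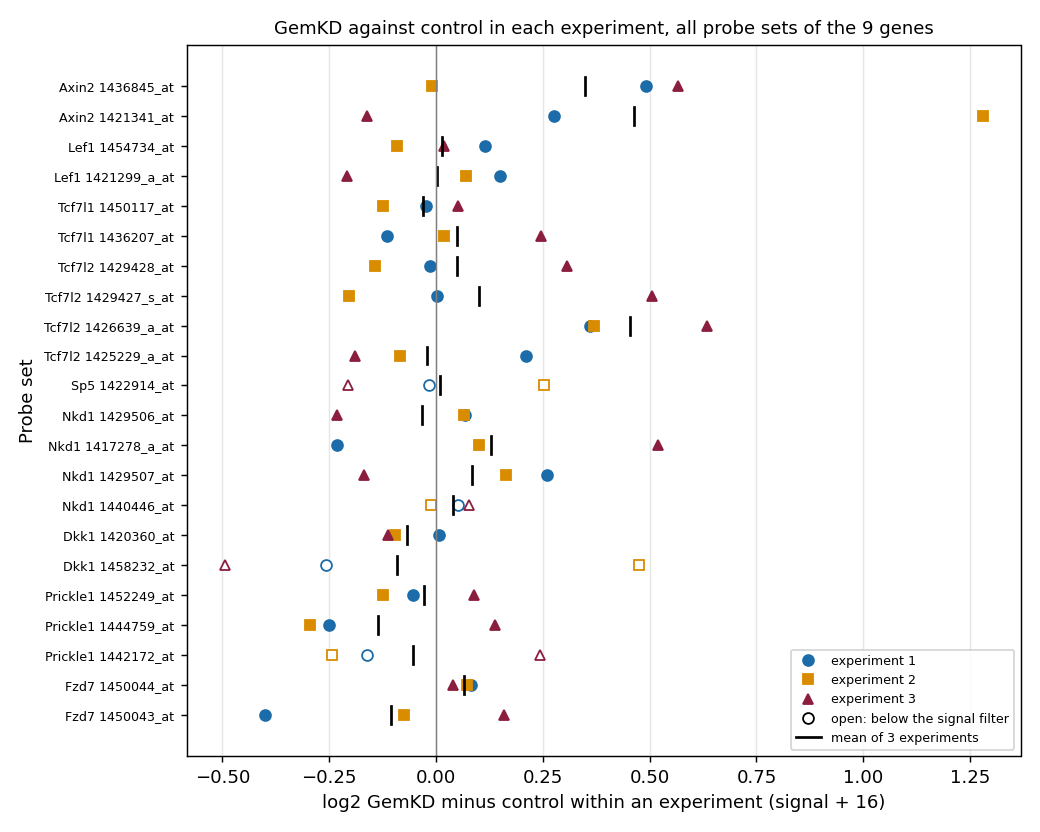
The log2 difference of GemKD and control within each experiment (x axis, signal + 16) for all 22 probe sets of the 9 genes (y axis), with the mean of the 3 experiments as a bar and open symbols below the signal filter. Symbols scatter on both sides of 0 for most probe sets, and Tcf7l2 1426639_a_at (0.36, 0.37 and 0.63) and Fzd7 1450044_at lie to the right in all 3 experiments.

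Prickle1 encodes a cytoplasmic core protein of planar cell polarity. Its brightest probe set, 1452249_at, had a signal of 58.8, 54.7 and 472 in the controls and of 56.2, 48.9 and 502 in GemKD. Each pair was close, with log2 ratios of -0.05, -0.12 and 0.09, while both arrays of experiment 3 were far above the other 4. The log2 difference of GemKD was -0.03, with a 95% interval of -2.26 to 2.21 without and -0.28 to 0.22 with the block. Probe set 1444759_at had 31.4, 25.6 and 38.0 against 23.8, 17.9 and 43.5, and was lower in GemKD in experiments 1 and 2 and higher in experiment 3. The third was below the filter at 1.40 to 11.4.

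Experiment 3 was next set beside experiments 1 and 2. It is 1 experiment against 2 and its arrays share their cultures' history, so values and counts are given with no test. Of the 18 tested probe sets 1, Prickle1 1452249_at, had both arrays of experiment 3 at least 2-fold above all 4 others, and 0 had them at least 2-fold below. Over all probe sets the shares were 0.193% and 0.59%. At any size 5 lay above and 4 below, against 20.8% and 25.7% of all. The median difference of the 18 was -0.08, against -0.01 over all probe sets tested.

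Prickle1 1452249_at averaged 487 in experiment 3 and 54.7 ± 4.18 (SD over 4 arrays) in experiments 1 and 2, a log2 difference of 2.83 or 7.12-fold. The lower array of experiment 3 was 6.51-fold above the highest of the others on the signal + 16 scale. Experiment 1, which used the same hairpin, and experiment 2 were alike as references, with differences of 2.77 and 2.89. The 2 other probe sets went the same way by less, at 0.49 for 1444759_at, where the groups did not overlap, and 0.27 for 1442172_at, where they did. Both were dim.

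Tcf7l1 was also higher in both arrays of experiment 3, by 0.35 in 1450117_at (1949 to 2379 in experiments 1 and 2, 2656 and 2753 in experiment 3) and by 0.65 in 1436207_at (1169 to 1429, 1894 and 2250). Experiment 2 was above experiment 1 in these probe sets by 0.21 and 0.22, and the differences of experiment 3 were 0.46 and 0.75 from experiment 1 and 0.25 and 0.54 from experiment 2. Nkd1 1429507_at was higher by 0.36, and its other tested probe sets overlapped.

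Lower in both arrays of experiment 3 were Axin2 1436845_at (-0.47, 183 ± 36.9 against 129), Lef1 1454734_at (-0.17) and 1421299_a_at (-0.21), and Tcf7l2 1429428_at (-0.26). The gaps between nearest arrays were small, at 1.04, 1.05, 1.01 and 1.04-fold. The control of experiment 3 had the lowest Axin2 signal of all, at 101, and its GemKD array, at 157, came close to the 164 of GemKD in experiment 2. Sp5 was lower by 0.39, below the filter on both sides. Fzd7 overlapped in both probe sets (0.06 and 0.06), as did Dkk1 1420360_at (-0.10).

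Several cell state markers moved with experiment 3. Naive pluripotency markers had 5 of 6 genes below the other arrays, with summed signals of 2755 to 3138 against 6632 to 8607. Primed epiblast markers had 4 of 4 above, at 20339 to 20693 against 13525 to 15675, and neural progenitor markers 4 of 7 below and 1 above. By the brightest probe set 19.7% of all genes lay above and 31% below. Fibroblast and smooth muscle markers had 4 of 6 below and 1 above, tested trophoblast markers 1 of 3 above, and the 4 tested genes each of streak and mesoderm and of endoderm overlapped. At least 2-fold apart were 1 fibroblast and smooth muscle marker above and 1 below, and 1 primed epiblast marker above. So were 2 naive and 2 neural progenitor markers below, where 0.24% of all genes were above and 0.733% below. Opposite shifts can cancel in a summed signal. Summed signals were 629 to 669 against 654 to 794 for streak and mesoderm (5 of 6 genes on the array, Mixl1 below the filter), 268 to 276 against 212 to 316 for endoderm (Cxcr4 and Afp below the filter), 191 to 214 against 151 to 193 for trophoblast (Elf5 and Gata3 below the filter) and 1724 to 1800 against 1705 to 1845 for fibroblast and smooth muscle genes. The lowest mean signal of any marker was 12.2, for Elf5. The part of cell state in the Prickle1, Tcf7l1, Axin2 and Lef1 differences was not tested, and in bulk RNA fewer cells of a type and less RNA per cell cannot be told apart.

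**Figure D3:**
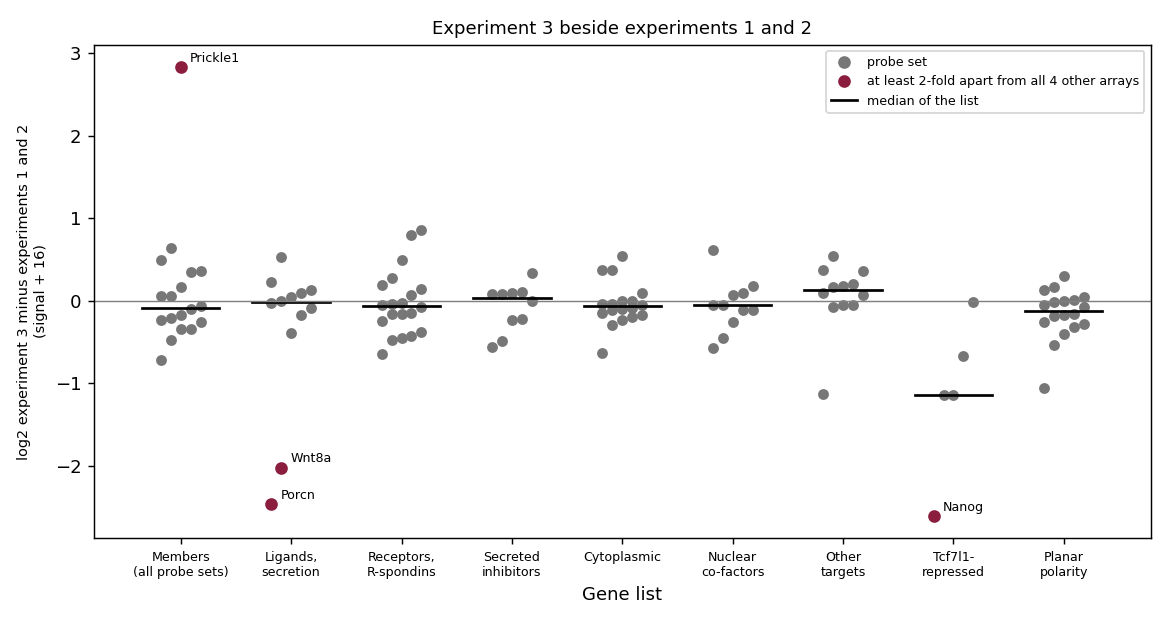
The log2 difference of experiment 3 and experiments 1 and 2 (y axis, signal + 16) by gene list (x axis). Shown are the 18 tested member probe sets, none of them of Sp5, and each gene's brightest probe set, where tested, in 8 wider lists. Bars are medians, and dark symbols lie at least 2-fold from all 4 other arrays. Prickle1 (2.83) stands alone above, and Porcn, Wnt8a and Nanog lie below.

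The wider pathway was described by 8 lists that hold 128 other genes, 122 of them with a probe set and 102 tested by the brightest. None was called for GemKD in limma, where 0.00705% of all genes were called without and 0.0141% with the block. At an unadjusted p under 0.05 in limma there were 0 of the 102 without and 12 with it, beside 0.924% and 4.21% of all genes. Their median log2 difference was 0.03, against 0.002 over all 14185 genes tested by the brightest probe set. GemKD was above control in each experiment in 24 of the 102 and below in 5, beside 12.2% and 11.7% of all genes. Ligands and their secretion had 2 of 12 higher and 2 lower in each experiment, receptors with the R-spondin system 4 and 1 of 20, secreted inhibitors 3 and 0 of 10, cytoplasmic components 4 and 1 of 18, nuclear co-factors 2 and 0 of 11, and other targets 1 and 1 of 12.

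Among the genes with the largest differences in their lists, Wnt8a, a canonical ligand, had a signal of 270, 174 and 40.6 in the controls and of 330, 227 and 56.6 in GemKD. It was above its own control by 0.28, 0.36 and 0.36, a mean of 0.33. The 95% interval was -1.31 to 1.98 without the block and 0.10 to 0.57 with it (limma adjusted p = 0.999993 and 0.992). Wnt4 had -0.48, with ratios of -0.01, -0.95 and -0.48. The receptor gene Fzd8 had 0.38 (ratios 0.35, 0.57 and 0.21), and the co-receptor gene Lrp5 0.34 (ratios -0.56, 1.53 and 0.04). Sfrp1, a secreted Wnt-binding inhibitor, had 0.32 in its brightest probe set and 0.24 to 0.39 in its 4 others, with ratios of 0.52, 0.51 and -0.05 in the first. Frzb had -0.31 and Apc2 0.43, the latter with -0.40 in a dimmer probe set. Csnk1e, a casein kinase of the pathway, had 0.22 and was higher in 3 of 3 experiments, with 0.12 and -0.40 in its other probe sets. The co-activator gene Bcl9 had 0.32 in its brightest probe set and -0.16 in the other, 1455565_at, and Pygo1 had 0.22. The targets Lgr5 and Tnfrsf19 had 0.27 and 0.17, the former with -0.012 in its other probe set. None passed in either fit.

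In experiment 3, 0 of the 102 lay at least 2-fold above and 3 at least 2-fold below all other arrays, where 0.24% and 0.733% of all genes did. The 3 were Porcn, Wnt8a and Nanog. Porcn, the acyltransferase that every Wnt needs for secretion, had 408, 462, 390 and 540 in control and GemKD of experiments 1 and 2, and 74.8 and 61.2 in experiment 3 (log2 -2.47, 5.52-fold lower). Wnt8a was lower by 2.02 on the log2 scale, at 40.6 and 56.6 against 174 to 330. Ror1, a receptor of the non-canonical branch, was higher by 0.86 (591 and 610 against 300 to 358) and Fzd8 by 0.80. Other differences were -0.63 for Csnk1e, 0.62 for the Groucho gene Tle3, 0.55 for Amer1 and -0.58 for Pygo1. Sfrp1 had -0.56, Dkk3 -0.49 (0.038 in its other probe set), Tnfrsf19 -1.13 and Ascl2 0.54. Dimmer tested probe sets had 0.55 and 0.03 for Ror1, -0.30 and -0.15 for Csnk1e, 0.58, 0.18 and 0.39 for Tle3, and 0.74 for Amer1. They had -0.66 to -0.14 for Sfrp1, -0.17 and -0.36 for Tnfrsf19, and 0.21 and 0.29 for Ascl2. Those that overlapped were Ror1 1451014_at, Csnk1e 1435373_at, Tle3 1449554_at, Tnfrsf19 1415921_a_at and both of Ascl2. Sfrp1 1416594_at, 1428136_at and 1460187_at overlapped too, as did Dkk3 1448669_at.

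Genes that Tcf7l1 is known to repress in mouse embryonic stem cells were set beside it. Nanog had 1713, 1565 and 288 in the controls and 2434, 2418 and 341 in GemKD. Experiment 3 was lower in Nanog (-2.61), Tfcp2l1 (-1.14), Klf2 (-1.15) and Nr5a2 (-0.67). So 4 of the 5 listed genes had both its arrays below the other 4, as 31% of all genes did. Nanog, Esrrb and Tfcp2l1 also belong to the naive pluripotency markers above, so these counts share genes. Any part of Tcf7l1 in the differences was not tested. Esrrb overlapped in its brightest probe set (1441921_x_at, -0.02) and was lower by 1.87 on the log2 scale in 1436926_at (63.9 and 93.3 against 235 to 415), a probe set named after its values were seen. The third, 1422986_at, overlapped (0.17, with 35.7 and 54.5 against 18.4 to 67.7), so no direction in experiment 3 holds for Esrrb. Of the 3 other probe sets of Nr5a2, 1456521_at was lower (-0.82) and the dimmer 2 overlapped. In GemKD, Nanog, Esrrb and Tfcp2l1 were higher in 3 of 3 experiments, as 12.2% of all genes were. Their mean log2 differences were 0.45, 0.16 and 0.20, and Klf2 and Nr5a2 had 0.06 and -0.07. The other Esrrb probe sets, 1436926_at and 1422986_at, had 0.45 and 0.50, also higher in 3 of 3. Klf2 and Nr5a2 were mixed in sign. Of the naive pluripotency markers 6 of 6 were higher in 3 of 3 experiments. This count includes Nanog, Esrrb and Tfcp2l1 again, beside Zfp42, Klf4 and Tbx3, which are not in this list. None of these genes passed (limma adjusted p with the block 0.371 for Nanog).

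**Figure D4:**
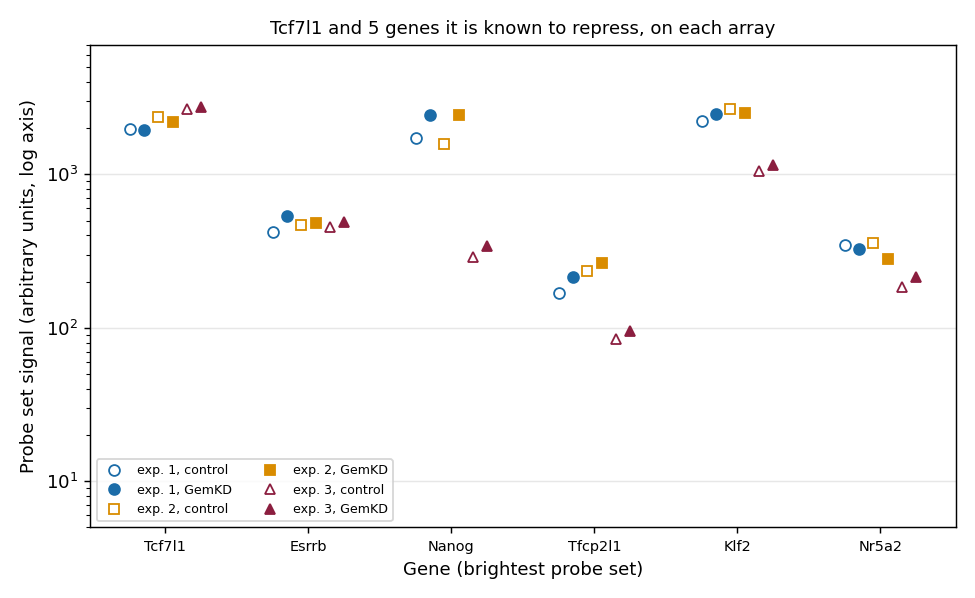
Signal of Tcf7l1 (1450117_at) and of the brightest probe set of 5 genes it is known to repress, on the 6 arrays, on a log axis, with open symbols for controls and filled ones for GemKD. Tcf7l1 is highest in experiment 3, where Nanog, Tfcp2l1, Klf2 and Nr5a2 are lowest, and Esrrb is level in the probe set shown. A link between them was not tested.

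As a description of likeness, genes were ranked by Pearson's r of their log2 values with each brightest probe set over the 6 arrays, which fall into experiment 3 and the rest. The closest were Slx4 and 1700008J07Rik for Axin2 (0.996 and 0.986), B3glct and Arel1 for Lef1 (0.996 and 0.993), and 2410002F23Rik and Rbm34 for Tcf7l1 (0.998 and 0.994). For Tcf7l2 they were Cbr4 and Uba3 (0.996 each), for Nkd1 Izumo4 and Hpd (0.997 and 0.993), and for Dkk1 Pigq and Phox2a (0.995 and 0.988). Prickle1 was closest to Ramp3 and Nop16 (0.998 each) and Fzd7 to Kcnk10 and Car9 (0.979 and 0.977). An r above 0.9 was shared with 1108 genes for Prickle1 and 637 for Tcf7l1, and with 40 for Fzd7, whose log2 values span 0.16 in all.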

How the data were processed

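The authors deposited 1 linear intensity per probe set and array, for 45037 probe sets on 6 arrays. Which software, background correction and normalization made them is not given in the sources. Column medians were alike, so no further normalization was applied, and detection calls were not used here. Gene symbols are those of the platform annotation, and the Entrez identifiers of the 9 genes found matched a RefSeq table of GRCm38.p6. Promoter sequences are RefSeq's on the same build. Groups and experiment numbers come from the labels.

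The test of GemKD against control was limma 3.58.1 (R 4.3.3) on log2(signal + 16), with an intensity trend, two-sided, over 31526 probe sets with Benjamini-Hochberg adjustment at 0.05, without a block. The alternative has the experiment as a block. The labels describe 3 independent experiments, each with its own control, so the numbers pair the samples. The correlation between the deviations of both arrays of an experiment was 0.431, 0.38 and 0.656. No animals or donors are involved, so p-values measure the spread between these cultures. Without the block that spread includes the differences between experiments, and with it only the spread of the GemKD ratio across experiments. For Prickle1 1452249_at the SE was 0.965 without and 0.116 with the block. Fits were checked on simulated data. Other alternatives were quantile normalization, filters, pseudocounts of 1 and 64, no trend, the brightest probe set per gene, and leaving out arrays and experiments.

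The members and gene lists were chosen with earlier results of these data known. Genes named from the wider lists are, per list, any called and the 2 with the largest difference for GemKD and for experiment 3, and all 5 Tcf7l1-repressed genes, Vangl and Celsr genes were added after their values were seen. The 2 genes most like each member were named by Pearson's r.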

Additional observations from a re-analysis of the deposited data

Results flagged for a closer look

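The log2 ratio of Lrp5, the co-receptor gene, in 1449299_at was called as different in experiment 2, the single experiment with shRNAmir 9, where hairpin, line and experiment cannot be told apart. The ratio of GemKD and control was 1.53 with shRNAmir 9 and on average -0.26 with shRNAmir 11, a difference of 1.79 (95% interval 1.22 to 2.36, limma adjusted p = 2.74e-04 over all probe sets). Signals were 319, 68.6 and 130 in the controls of experiments 1, 2 and 3 and 211, 228 and 134 in GemKD, so the control of experiment 2 was the lowest array and the difference rests on 1 ratio. The fit has 1 residual degree of freedom per probe set, and the spread of shRNAmir 9 itself was not measured. The Lrp5 call was lost with no filter (adjusted p = 0.636), with no intensity trend (0.9999) and without the block (0.99999), and it ranged from 4.39e-08 to 0.00408 under the other alternatives. It was 1 of 102 genes of the wider lists, where 0.233% of all genes were called. Gmnn, the targeted gene, was called in the same fit, with a difference of 0.59 between -1.05 under shRNAmir 9 and -1.64 under shRNAmir 11 (95% interval 0.31 to 0.86, limma adjusted p = 0.0415), which also rests on 1 ratio. That call was lost with quantile normalization (adjusted p = 0.143), no filter (1), no intensity trend (0.9999) and no block (0.99999), and had 0.00226 to 0.0166 under the other alternatives. Groups of 3 arrays are too small for a search for single outlying arrays.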

How the results depend on the processing

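The 0 calls among the 18 member probe sets held under every alternative run, with the smallest adjusted p at 0.479, and the hairpin difference also called 0 under each. Over all probe sets the count was 1, became 3 with the experiment as a block and 0 with no intensity trend, and was 0 to 1 when arrays or experiments were left out without the block, and 17, 12 and 13 with the block and without experiment 1, 2 and 3. No other call about these genes changed with the block. The 1 member probe set whose groups did not overlap, Tcf7l2 1426639_a_at, is dim and was removed by a filter at the 50th percentile, which left 0. Prickle1 remained the 1 probe set at least 2-fold apart in experiment 3 in all alternatives but the one of any size, which gave 9. Its difference was 3.13 and 2.22 with pseudocounts of 1 and 64.

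Small differences changed sign. Quantile normalization gave -0.0034 and -0.012 for Lef1 1454734_at and 1421299_a_at. Leaving out arrays or experiments gave ranges across 0 of -0.17 to 0.0007 for Dkk1 1420360_at, -0.0058 to 0.46 for Fjx1, -0.24 to 0.042 for Fzd7 1450043_at, -0.070 to 0.13 for Lef1 1421299_a_at, -0.044 to 0.087 for Lef1 1454734_at, -0.26 to 0.87 for Lrp5, -0.36 to 1.38 for Nanog, -0.065 to 0.31 for Nkd1 1417278_a_at, -0.13 to 0.074 for Nkd1 1429506_at, -0.0065 to 0.27 for Nkd1 1429507_at. They were also -0.37 to 0.039 for Prickle1 1444759_at, -1.003 to 0.89 for Prickle1 1452249_at, -0.019 to 0.37 for Pygo1, -0.21 to 0.25 for Tcf7l1 1436207_at, -0.17 to 0.078 for Tcf7l1 1450117_at, -0.15 to 0.14 for Tcf7l2 1425229_a_at, -0.11 to 0.30 for Tcf7l2 1429427_s_at, -0.100 to 0.16 for Tcf7l2 1429428_at, -0.16 to 0.60 for Tfcp2l1, -0.18 to 0.57 for Tnfrsf19 and -0.35 to 0.998 for Wnt8a. For Prickle1 1452249_at, Nanog, Wnt8a, Tfcp2l1 and Tnfrsf19 both ends came from leaving out 1 array of experiment 3, which unbalances the groups. With the experiment as a block, a whole experiment left out turned the sign of these. Without experiment 1 it was 0.042 for Fzd7 1450043_at, -0.070 for Lef1 1421299_a_at, -0.036 for Lef1 1454734_at and -0.003 for Nkd1 1429507_at. Without experiment 2 it was -0.0058 for Fjx1 1422733_at, -0.030 for Lef1 1421299_a_at, -0.26 for Lrp5 1449299_at, 0.018 for Prickle1 1452249_at, 0.015 for Tcf7l1 1450117_at and 0.011 for Tcf7l2 1425229_a_at. Without experiment 3 it was -0.065 for Nkd1 1417278_a_at, 0.067 for Nkd1 1429506_at, -0.048 for Tcf7l1 1436207_at, 0.064 for Tcf7l2 1425229_a_at, -0.10 for Tcf7l2 1429427_s_at and -0.078 for Tcf7l2 1429428_at. Nanog passed with the block and without experiment 3 (log2 0.56, adjusted p = 0.00629). Leave-one-out fits of the hairpin term were not run, since no residual degree of freedom would remain. Dim probe sets have no measure of background of their own.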

Other observations

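Other planar polarity genes were described as a list of 22, of which 18 were tested by their brightest probe set. For GemKD 5 were higher and 0 lower in all 3 experiments, against 12.2% and 11.7% of all genes, and none was called. The mean log2 difference was above 0 in 13 of the 18 and below 0 in 5, with a range of -0.15 to 0.44. The transmembrane core genes Vangl1 and Vangl2, named after their values were seen, were among those higher in all 3 experiments. Vangl1 had 365, 357 and 314 in the controls and 443, 396 and 367 in GemKD (log2 0.21, limma adjusted p with the block 0.992). Vangl2 had 466, 482 and 510 against 558, 528 and 542 (log2 0.15, limma adjusted p with the block 0.992). Daam2, a formin, had 0.44, most of it in experiment 3 (10.7 in the control and 43.8 in GemKD), and -0.0054 in its other probe set, and Fjx1 0.23, with -0.22 in experiment 3. In experiment 3 none of these genes was near the 2.83 of Prickle1. Ankrd6, whose fly counterpart diego is a core polarity gene, was lower, at 436 and 510 against 938 to 1071 (log2 -1.06). Its 2 dimmer probe sets had -1.28 and -1.45. Prickle2 was dim and lower by 0.54 on the log2 scale. The 3 Celsr genes had 0.30, 0.16 and -0.17, and Vangl1 and Vangl2 had -0.19 and 0.05.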
